A study of Mus musculus with 6 samples.

Results

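Cd3d, Cd3e, Cd3g, Cd4, Cd8a, Gzma, Gzmb, Nkg7, Prf1 and Klrb1c are 10 genes that mark T cells and natural killer (NK) cells. They were chosen by symbol, and all 10 were found among the 21362 genes of the deposited expression table and among the 18419 genes with a count in at least 1 liver. The livers came from 6 Mettl14f/f male mice, whose floxed Mettl14 alleles are cut by Cre recombinase. All 6 mice started a high-fat diet (HFD) at 8 weeks of age and received a vector by tail vein after 10 weeks of the diet, and the livers were taken 8 weeks later. In 3 mice the vector was AAV8-TBG-Cre (genotype label METTL14 KO), and in 3 it was AAV8-TBG-GFP, the control (genotype label WT). Both groups therefore carried the floxed alleles, the AAV8 capsid and the diet. The TBG promoter acts in hepatocytes, so Mettl14 in T cells, NK cells and other cells of the liver was not the target of Cre. The RNA was that of whole liver, in which fewer cells of a type and less RNA per cell cannot be told apart. The livers are called GFP 1 to GFP 3 and Cre 1 to Cre 3 here, after the vector and the replicate number. The question put to these genes was whether their RNA differed with the vector.

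T cells recognise antigen through a receptor whose signal is carried into the cell by the CD3 chains. The coreceptors CD4 and CD8 divide them into helper and cytotoxic classes. Cytotoxic T cells and NK cells kill by releasing granules that hold perforin and granzymes, and NK cells choose targets with surface receptors such as the lectin encoded by Klrb1c. The mouse liver is known for a resident population of NK cells, innate-like T cells and memory T cells, found mostly in the sinusoids, the small vessels between hepatocytes.

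The 6 libraries held between 20356440 and 21010508 counts each. The 10 genes together took between 69.1 and 176 of those counts, so every value below carries large counting error. In the GFP livers, Mettl14, the targeted gene, stood at 6.30, 6.43 and 5.81 CPM (counts scaled to a common library size, with TMM normalization), and in the Cre livers at 4.96, 5.38 and 4.86 CPM. Its expected counts were 124, 126 and 111 against 104, 131 and 101. The groups did not overlap on the CPM scale, but by count and by FPKM Cre 2 was the highest of the 6 livers. The log2 fold change of -0.29 (SE 0.15) had an adjusted p of 0.337, so Mettl14 RNA did not settle the genotype labels. The paper reports less METTL14 protein in male livers under the same diet and vectors, taken at an earlier time. Protein was not measured in these data. Cre 2 lay furthest out on the first principal component of all genes, which held 54.1% of the variance. The library names have 2 digits for GFP 1, GFP 2 and Cre 1, and 4 digits for the others, and the sources used here do not say what the difference means.

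The genes lie on 6 chromosomes (mouse build mm10, positions from RefSeq on GRCm38.p6). Cd3g (NCBI gene 12502, chr9:44969572-44980431), Cd3d (12500, chr9:44981769-44987052) and Cd3e (12501, chr9:44998735-45009663) are neighbours. Cd3d runs on the plus strand and the other two on the minus strand, so Cd3d and Cd3g point away from each other, with 1355 bases between the starts of their RefSeq windows. Chromosome 6 carries Cd8a (12525, chr6:71373427-71379171), Cd4 (12504, chr6:124864693-124888247) and Klrb1c (17059, chr6:128778485-128788641), which lie far apart. Gzma (14938, chr13:113093824-113100981), Gzmb (14939, chr14:56258836-56262334), Prf1 (18646, chr10:61297751-61304684) and Nkg7 (72310, chr7:43437138-43438246) each lie on a chromosome of their own.

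Start regions were available for 9 of the 10 genes, as RefSeq windows of 250 bases before to 50 bases after the start. For Cd3d, Cd3e and Prf1 the start used by the window lies inside the gene span given above, not at its end. Cd4 had no window. The windows were searched on both strands for TGTGGT, the core bound by RUNX factors, and AGGAAG, a form of the site bound by ETS factors, since both families act in T and NK cells. The RUNX core was present in 5 of the 9 windows, those of Gzma, Gzmb, Nkg7, Prf1 and Klrb1c, and in 16.8% of all 32817 windows. The ETS form was present in 5 of the 9, those of Cd3d, Cd3e, Nkg7, Prf1 and Klrb1c, and in 35.4% of all windows. The 5 genes with the RUNX core are those of the cytotoxic and NK group. The Cd3d, Cd3e, Cd3g and Cd8a windows held no TGTGGT on either strand. AGATAA, a form of the GATA site, was found in Cd3g alone (11.2% of all windows), GGTGTGA, a T-box element, in Nkg7 alone (3.98%), and TATAAA in none of the 9 (13.6%). A pair of ETS matches in the Klrb1c window overlapped by 2 bases, and no other matches overlapped. The windows of Gzmb, Nkg7 and Prf1, granule genes that share the RUNX core, and that of Cd8a, the coreceptor gene with the largest fold change, are shown because they differ in this: the Cd8a window held none of the letters searched. They are printed 5′ to 3′ on the strand of the gene, with RUNX and ETS matches in capitals.
Gzmb, chr14:56262285-56262584, minus strand: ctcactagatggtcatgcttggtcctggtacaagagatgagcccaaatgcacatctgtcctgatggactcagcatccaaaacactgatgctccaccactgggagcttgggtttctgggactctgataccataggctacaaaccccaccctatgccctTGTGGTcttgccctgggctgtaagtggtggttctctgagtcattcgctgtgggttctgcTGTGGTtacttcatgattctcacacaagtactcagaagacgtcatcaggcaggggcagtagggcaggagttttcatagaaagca
Nkg7, chr7:43436888-43437187, plus strand: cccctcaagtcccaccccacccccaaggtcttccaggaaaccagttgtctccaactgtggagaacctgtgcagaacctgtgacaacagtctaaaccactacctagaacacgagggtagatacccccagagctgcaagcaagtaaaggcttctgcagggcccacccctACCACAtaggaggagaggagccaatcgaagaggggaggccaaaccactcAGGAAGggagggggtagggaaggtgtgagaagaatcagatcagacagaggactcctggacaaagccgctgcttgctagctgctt
Prf1, chr10:61297586-61297885, plus strand: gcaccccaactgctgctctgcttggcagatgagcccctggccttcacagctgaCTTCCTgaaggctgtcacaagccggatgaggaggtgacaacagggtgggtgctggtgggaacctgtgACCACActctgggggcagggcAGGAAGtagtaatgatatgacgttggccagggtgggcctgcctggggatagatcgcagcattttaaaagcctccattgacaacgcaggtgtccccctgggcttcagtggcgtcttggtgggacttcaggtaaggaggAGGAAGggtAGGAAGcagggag
Cd8a, chr6:71373177-71373476, plus strand: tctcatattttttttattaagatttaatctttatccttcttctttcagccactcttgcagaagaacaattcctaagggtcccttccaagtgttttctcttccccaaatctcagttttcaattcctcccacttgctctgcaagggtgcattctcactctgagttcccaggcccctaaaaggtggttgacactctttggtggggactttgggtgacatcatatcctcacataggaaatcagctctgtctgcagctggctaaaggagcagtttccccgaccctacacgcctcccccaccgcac
In the Gzmb window both RUNX matches read in the direction of the gene and began 93 and 34 bases before the start. In the Nkg7 and Prf1 windows the RUNX match lay on the opposite strand, beginning 83 and 130 bases before the start used by the window. For Prf1 the match is therefore nearer to the end of the gene span than that distance. A match describes the letters and says nothing of binding in these livers.

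Levels were compared between genes as FPKM, which divides by transcript length. Over the 6 livers the mean FPKM was 0.773 for Nkg7, a granule membrane protein, 0.495 for Cd3g, 0.463 for Cd4, 0.337 for Cd8a, 0.292 for Gzmb, 0.210 for Cd3e, 0.168 for Gzma, 0.167 for Cd3d, 0.0917 for Klrb1c and 0.0583 for Prf1. All 10 were low. Nkg7 ranked above 46.8% of the genes in the table and Prf1 above 28.1%. No neighbours in this order differed by more than the larger of their SDs over the 6 livers. The ends of the order did separate, as Nkg7 lay between 0.37 and 1.59 and Prf1 between 0.02 and 0.12 FPKM. The defining T cell genes Cd3d, Cd3e and Cd3g had a count in all 6 livers. Ncr1, the activating receptor that defines NK cells, was at 0 in GFP 1 and reached at most 3 counts in any liver, so it was near the limit of detection at this depth.

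The CD3 genes encode the signalling chains that accompany the T cell receptor. The expected count of Cd3g, the gamma chain, was 6, 11 and 7 in the GFP livers and 4, 25 and 9 in the Cre livers. The 25 counts of Cre 2 were above all other livers, while Cre 1 had the fewest, so the groups overlapped. Cd3d, the delta chain, stood at 3.02, 2.04 and 3.12 counts with GFP and at 7.13, 9.33 and 3.11 with Cre. Cre 1 and Cre 2 were above every control, and Cre 3 was level with them. Cd3e, the epsilon chain, stood at 7, 10 and 2 counts with GFP and at 6, 7 and 5 with Cre, and these ranges overlapped fully. None of the 3 genes passed the filter on low counts. In a fit of all 18419 genes with a count their log2 fold changes were 0.42 (SE 0.63) for Cd3g, 1.01 (SE 0.68) for Cd3d and -0.26 (SE 0.64) for Cd3e, with adjusted p of 0.758, 0.488 and 0.859. The sign of Cd3g turned to -0.40 without Cre 2, and that of Cd3e to 0.22 without GFP 2. Summed, the 3 chains held 0.872 ± 0.277 CPM in GFP livers and 1.10 ± 0.502 CPM in Cre livers (SD, n = 3 each). Cd247, the zeta chain that completes the complex, held 0.407, 1.63 and 0.576 CPM in the GFP livers and 0.239, 0.616 and 0.241 CPM in the Cre livers. Its log2 fold change was -1.22 (SE 0.65, adjusted p = 0.335), and GFP 2 stood above all other livers. It was -0.39 without GFP 2 (adjusted p = 0.802), and it passed the unadjusted threshold without Cre 2 (-1.84) or GFP 1 (-1.56).

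**Figure D1:**
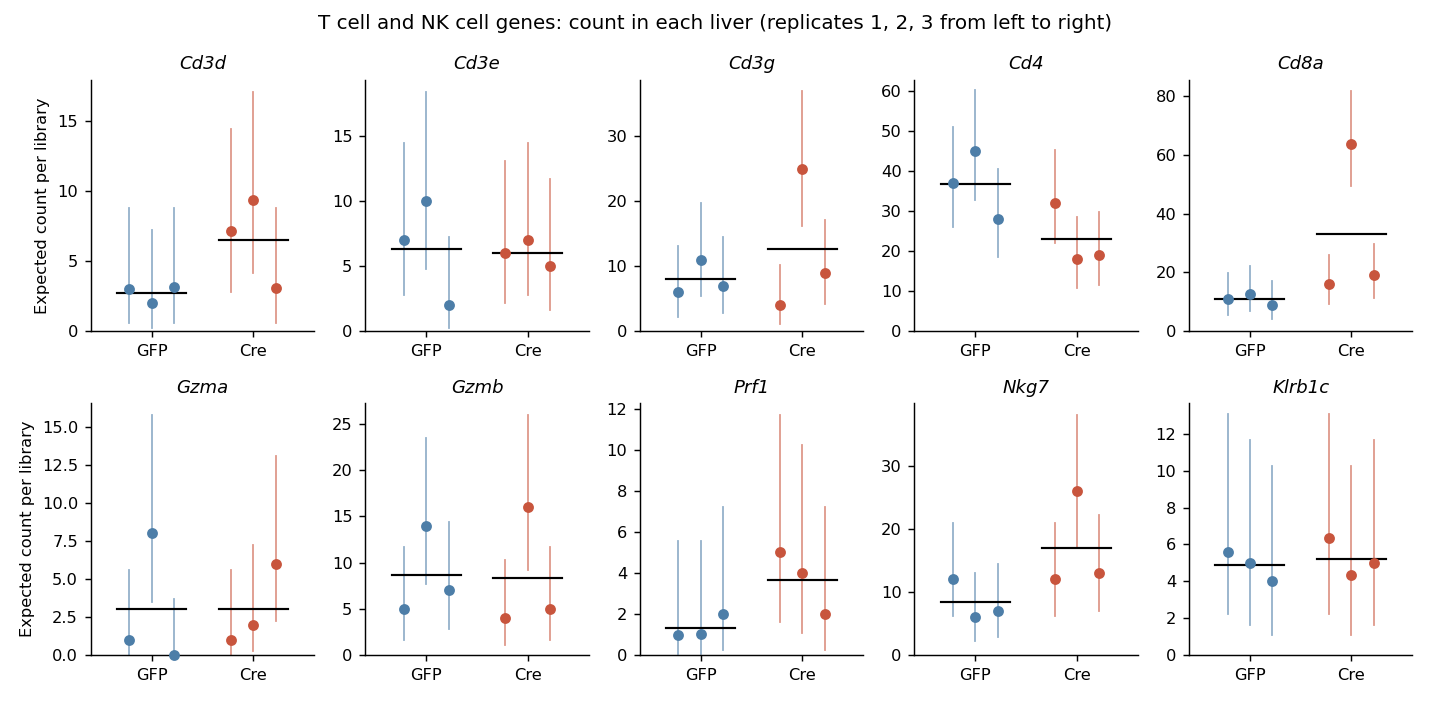
Expected count (y axis, linear, from 0) of each of the 10 genes in the 3 GFP livers (blue) and the 3 Cre livers (red), with exact 95% Poisson intervals as thin lines and group means as black bars. Cre 2, the middle red point, is the highest liver for Cd3d, Cd3g, Cd8a, Gzmb and Nkg7, and in Cd8a all 3 red points lie above all 3 blue points. In Prf1 the lowest red point (2) and the highest blue point (1.99) are level.

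Cd8a and Cd4, the coreceptor genes, went in opposite directions. Cd8a, the alpha chain of CD8, had 10.99, 12.56 and 9 counts in the GFP livers and 16, 63.85 and 19 counts in the Cre livers. Every Cre liver was above every control, and Cre 2 was far above the other two. As CPM the level was 0.564 ± 0.0961 with GFP and 1.44 ± 1.04 with Cre (SD, n = 3 each), and Cre 2 held 61.0% of the sum over its group. The log2 fold change was 1.35 (SE 0.54), past the threshold used by the study (unadjusted p under 0.05 and at least 1.2-fold) and not past it when adjusted (adjusted p = 0.212). The exact two-sided permutation p was 0.1, the smallest that 3 livers against 3 can give. Without Cre 2 the value was 0.56 (adjusted p = 0.543) and the call was lost. It was also lost without GFP 1 (1.34), GFP 2 (1.48) or GFP 3 (1.24), with adjusted p between 0.356 and 0.418. Among libraries with names of 2 digits the log2 ratio of mean CPM was 0.32, and among those with 4 digits, which include Cre 2, it was 1.91. With the form of the library name in the model the log2 fold change was 1.10 and the call was lost (adjusted p = 0.350).

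Cd8b1 encodes the beta chain that pairs with the alpha chain on most cytotoxic T cells of lymphoid organs. It had 0.610, 0.561 and 0.523 CPM in the GFP livers and 0.334, 1.23 and 0.818 CPM in the Cre livers. Cre 2 was again the highest liver, but Cre 1 was the lowest of the 6, and the log2 fold change of 0.50 (SE 0.49) did not pass (adjusted p = 0.607). On the FPKM scale, deposited with 2 decimals, the ratio of Cd8a to Cd8b1 was 0.405, 0.487 and 0.412 in the GFP livers and 0.962, 0.942 and 0.509 in the Cre livers. Its numerator is the gene called above, so the separation of this ratio partly restates that call and adds no support to it. Cd8a alone is also carried by a subset of dendritic cells and by some innate-like lymphocytes. The summed CPM of 10 dendritic cell genes was 9.59 to 11.4 in the GFP livers and 12.5 to 33.0 in the Cre livers, and their part in the Cd8a difference was not tested. Of these genes Itgax (2.16), Cd209a (1.53) and Siglech (1.24) were called higher, and the call of Siglech was lost without Cre 2 or any of the GFP livers. Flt3 (1.25), Xcr1 (0.29), Clec9a (0.11) and Zbtb46 (0.10) were not called. Batf3 (1.09), Clec10a (0.57) and Ccr9 (-0.08) were below the filter, with values from the fit of all genes with a count.

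Cd4, the helper coreceptor, had 37, 45 and 28 counts in the GFP livers and 32, 18 and 19 counts in the Cre livers. Cre 1 lay inside the control range, and the other 2 livers lay below it. The level was 1.88 ± 0.415 CPM with GFP and 1.06 ± 0.414 CPM with Cre (SD, n = 3 each). Its log2 fold change of -0.83 (SE 0.36) was just past the unadjusted threshold and did not pass when adjusted (adjusted p = 0.239). The exact permutation p was 0.2. The call was lost without Cre 2 (-0.63), Cre 3 (-0.74), GFP 1 (-0.83) or GFP 2 (-0.66), with adjusted p between 0.416 and 0.503. DESeq2 gave a log2 fold change of -0.84, just short of the unadjusted threshold (adjusted p = 0.260). The log2 ratio was -0.45 among libraries with names of 2 digits and -0.83 among those with 4 digits, and the call was lost once that form was a covariate (-0.63, adjusted p = 0.292). The direction was kept in 15 of 15 alternatives. CD4 is also made by some macrophages and dendritic cells, so Cd4 RNA is not that of helper T cells alone. The FPKM ratio of Cd8a to Cd4 was 0.293, 0.271 and 0.326 in the GFP livers and 0.5, 3.5 and 1 in the Cre livers. The 3 control livers lay close together, and each Cre liver lay above them. The ratio divides the 2 genes called in opposite directions, so its separation restates those calls and adds no support to them.

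The granule genes encode the killing machinery shared by cytotoxic T cells and NK cells. Nkg7 had 12, 6 and 7 counts in the GFP livers and 12, 26 and 13 counts in the Cre livers. Cre 2 was the highest, and GFP 1 was level with Cre 1. It was the only granule gene among the 10 that passed the filter, and its log2 fold change of 0.82 (SE 0.44) did not pass the threshold (adjusted p = 0.335). Prf1, which encodes the pore-forming protein perforin, had 0.99, 1 and 1.99 counts with GFP and 5, 4 and 2 with Cre. No control exceeded the lowest Cre liver in expected counts, but after scaling by TMM the groups overlapped, and the totals were 3.98 against 11 counts. Gzmb, the granzyme that cleaves caspases, had 5, 14 and 7 counts with GFP and 4, 16 and 5 with Cre. The second liver of each group was its highest, and the ranges were nearly the same. Gzma, a granzyme with a trypsin-like specificity, had 1, 8 and 0 counts with GFP and 1, 2 and 6 with Cre, a total of 9 in each group. The 0 of GFP 3 allows a level of up to 0.157 CPM (3 counts). The log2 fold changes in the fit of all genes with a count were 1.2 (SE 0.83) for Prf1, -0.28 (SE 0.64) for Gzmb and -0.16 (SE 1.14) for Gzma, with adjusted p of 0.507, 0.854 and 0.964. In limma on log2(FPKM + 0.1) with no filter Prf1 passed the unadjusted threshold (0.51, adjusted p = 0.266). The sign of Gzma turned without GFP 2 (2.17), Cre 1 (0.21) or Cre 2 (0.11), and that of Gzmb without GFP 2 (0.23) or Cre 1 (0.02).

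Klrb1c encodes NK1.1, the surface lectin by which mouse NK cells and many natural killer T cells are sorted. It had 5.58, 5 and 4 counts in the GFP livers and 6.33, 4.35 and 5 counts in the Cre livers. Cre 1 was the highest liver and GFP 3 the lowest, and the groups overlapped. Its log2 fold change in the fit of all genes with a count was -0.17 (SE 0.59, adjusted p = 0.907), the closest to 0 beside Gzma among the 10, and it was 0.03 without Cre 2. Klrb1c has close paralogs among its neighbours, and shared fragments were divided by the quantifier, so its counts are uncertain. Ncr1 had 3 counts in total with GFP and 6 with Cre, and its log2 fold change was 0.76 (SE 1.09, adjusted p = 0.748).

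Across the 10 genes, 3 passed the filter (Cd4, Cd8a and Nkg7), which can be passed through the higher group alone. Of these, Cd8a was called higher and Cd4 lower at the unadjusted threshold, where 20.5% of all 13431 genes tested were called, 12.0% higher and 8.41% lower. In edgeR 0 of the 3 passed an adjusted p of 0.05, against 0.931% of genes tested, and the smallest adjusted p of any of the 10 genes over all alternatives was 0.0914, for Cd4. The groups failed to overlap for Cd8a, as they did for 27.0% of genes tested. With no filter, 2 of the 10 were called, Cd8a and Cd4 again, where 17.6% of 18419 genes were called. The share of the 10 genes was thus near that of all genes. The median log2 fold change of all 10 in that fit was 0.13, and that of all genes was 0.01.

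**Figure D2:**
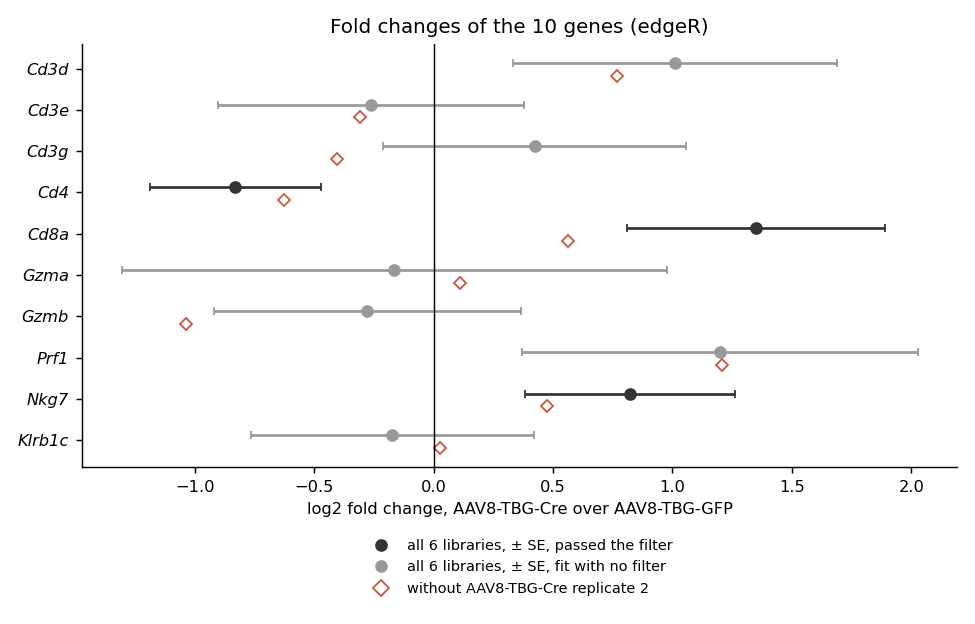
log2 fold change of AAV8-TBG-Cre over AAV8-TBG-GFP (x axis) for each of the 10 genes, as filled points ± SE from all 6 livers (black where the gene passed the filter, grey from the fit with no filter) and as open diamonds with Cre 2 left out. Cd8a moves from 1.35 to 0.56 and Cd3g from 0.42 to -0.40 when that liver is left out, while Prf1 and Cd3e hardly move.

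On the CPM scale Cre 2 was the highest of the 6 livers for 4 of the 10 genes (Cd3d, Cd3g, Cd8a and Nkg7), and it was the highest for 25.5% of all genes with a count. It held 62.2% of the summed CPM of Cd3g over its group and 60.4% of that of Gzmb. GFP 2 had the highest CPM for another 4 (Cd3e, Cd4, Gzma and Gzmb), although Cre 2 had the most counts of Gzmb. The sum of the 10 genes was 4.52, 5.87 and 3.61 CPM in the GFP livers and 4.44, 7.19 and 4.14 CPM in the Cre livers. GFP 2 and Cre 2 led their groups, and the remaining livers of the 2 groups overlapped. The log2 ratio of the group means of this sum was 0.17. It was -0.12 without Cre 2 and with GFP 2, the highest control, kept, and it was not computed without GFP 2. With Cd4 taken out, the sum was 2.64, 3.57 and 2.15 CPM in the GFP livers and 2.91, 6.45 and 3.22 CPM in the Cre livers. The log2 ratio was then 0.59, and 0.14 without Cre 2 and with GFP 2 kept. With only Cre 2 left out, the sign therefore depended on Cd4.

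Other genes with roles in T and NK cells were read from 6 lists of 107 genes, of which 54 passed the filter. Of the 54, 15 were called higher and 4 lower at the unadjusted threshold (12.0% and 8.41% of all genes tested), and "rose" and "fell" stand for these calls below. A gene can pass the filter through its higher group alone. The median log2 fold change was 0.40 over the 54 and -0.01 over all genes tested, and it was 0.48 over the 106 with a count in the fit with no filter, where it was 0.01 over all genes. Without Cre 2 the calls were 10 higher and 4 lower. With Cre 1 left out 7 were lower, and with Cre 3 left out 2. Of the 19 calls, 11 were made again with every liver left out in turn. In the fit with no filter 20 list genes were called higher and 4 lower, against 1953 and 1296 of all 18419 genes. Cd28 (1.76), Hcst (2.11), Cxcr3 (1.46) and Cxcr6 (1.71) were below the filter and called higher there, with adjusted p from 0.185 to 0.282. Their GFP means were 0.0509 to 0.223 CPM, and the 4 lower genes were those called with the filter.

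In the list of receptor complex and signalling, 7 of 18 genes passed the filter, 1 was called higher and 1 lower, and the median was 0.36. Lcp2, the adaptor SLP-76 of T cells and of myeloid cells, rose from 4.60 to 8.00 CPM (log2 fold change 0.80, SE 0.18, adjusted p = 0.0775). Themis, known from thymocyte selection, fell from 27.0 to 13.2 CPM (log2 fold change -1.03, SE 0.28, adjusted p = 0.101). The CD3 genes had GFP means of 0.137 to 0.411 CPM, far below Themis (27.0) and Zap70 (11.2), on a scale not divided by length. These levels do not show that the RNA of Themis and Zap70 is that of T cells, and its cell source was not tested. The receptor kinases Lck (0.21) and Zap70 (0.36) did not pass. In the checkpoint and costimulation list 5 of 12 genes passed the filter and 1 was called, Havcr2, which encodes TIM-3 and is also made by macrophages (1.69, SE 0.42, adjusted p = 0.0854). Lag3 (-0.07), Tigit (-0.33) and Icos (-0.24) did not pass.

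Of 20 NK cell receptors and adaptors, 19 had a count in any liver and 2 passed the filter. Tyrobp, the adaptor DAP12 used by NK cell receptors and by most myeloid cells, rose from 8.43 to 19.6 CPM (1.22, SE 0.20, adjusted p = 0.0444), the only gene of the 6 lists to pass when adjusted in the fit of 6 livers. The adjusted p was 0.0763 without Cre 2, 0.0915 without Cre 3 and between 0.115 and 0.175 without a GFP liver, and it stayed under 0.05 without Cre 1 (0.0258). Klrk1, which encodes the activating receptor NKG2D, rose from 0.598 to 1.13 CPM (0.91, SE 0.35, adjusted p = 0.197). Its call was lost without Cre 1, Cre 2, GFP 1 or GFP 3, with log2 fold changes between 0.76 and 1.19 over all livers left out in turn. The other 17 with a count, Klrd1, Ncr1 and Hcst (given above) among them, were below the filter. Among the cytotoxic effectors 11 of 16 passed the filter, 1 was called higher and 1 lower, and the median of 0.08 was close to that of all genes tested (-0.01). Ctsc, the protease that activates granzymes and is made in many cell types, fell from 114 to 62.4 CPM (-0.88, SE 0.16, adjusted p = 0.0564). Srgn, the proteoglycan core of granules, rose from 7.36 to 10.0 CPM (0.44, SE 0.19, adjusted p = 0.238), and its call was lost without Cre 2 or any of the GFP livers (0.24 to 0.54).

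Among the transcription factors 10 of 18 passed the filter, 3 were called higher and 1 lower, with a median of 0.45. Prdm1, which encodes Blimp-1 of effector lymphocytes, rose from 0.239 to 0.985 CPM (2.02, SE 0.49, adjusted p = 0.0854). Runx3, a factor of the cytotoxic lineage and of NK cells, rose from 0.412 to 1.52 CPM (1.88, SE 0.56, adjusted p = 0.126). Ikzf1, the lymphoid factor Ikaros, rose by 0.87 (SE 0.31, adjusted p = 0.172), and Tox, a factor of T cell development and exhaustion, fell by 1.01 (SE 0.38, adjusted p = 0.192). Tox had a GFP mean of 12.6 CPM, also far above the CD3 genes, and the cell source of its RNA was not tested. The call of Ikzf1 was lost without Cre 2, GFP 2 or GFP 3 (0.59 to 1.12), and that of Tox without Cre 2, Cre 3 or GFP 2 (-1.48 to -0.69). The master factors Tbx21, Eomes, Gata3 and Foxp3 were below the filter.

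Among the cytokine receptors and recruitment genes 19 of 23 passed the filter, 7 were called higher and 1 lower, with a median of 0.73. Il2rg, the gamma chain shared by several interleukin receptors of lymphocytes, rose from 2.64 to 5.67 CPM (1.10, SE 0.25, adjusted p = 0.0757). Cx3cr1, a chemokine receptor of monocytes and effector lymphocytes, rose from 2.21 to 7.39 CPM (1.74, SE 0.43, adjusted p = 0.0858). Cxcl16, the chemokine that holds Cxcr6-bearing lymphocytes in the sinusoids, rose from 8.14 to 18.1 CPM (1.16, SE 0.29, adjusted p = 0.0882). Il12rb1, a receptor chain for interleukin-12, fell by 0.87 (SE 0.36, adjusted p = 0.226), a call lost without Cre 2, Cre 3, GFP 1 or GFP 3 (-1.09 to -0.60). Without Cre 2 the list held 4 higher and 0 lower calls in edgeR.

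**Figure D3:**
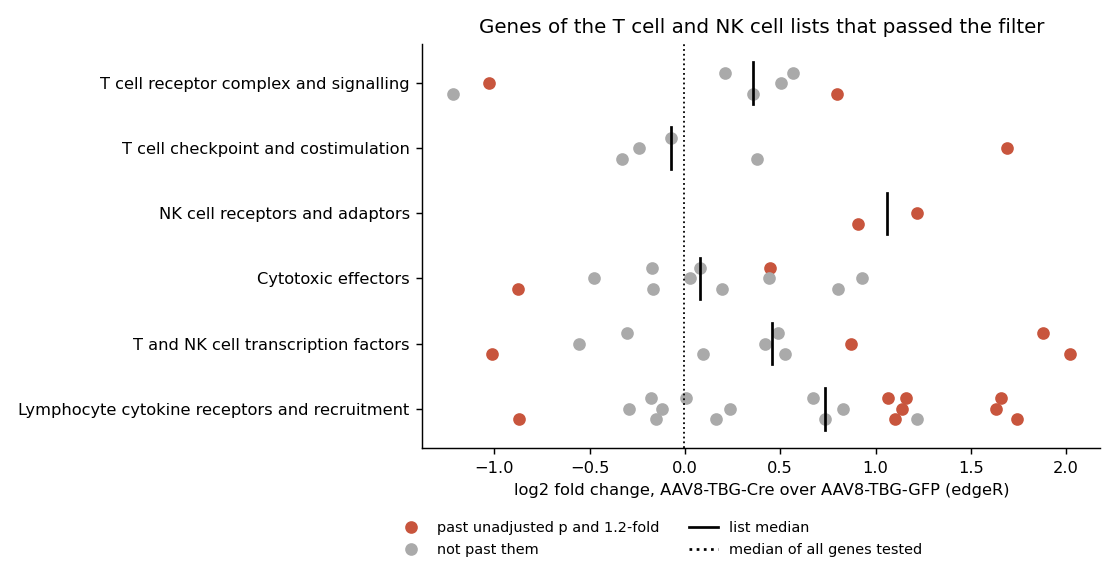
log2 fold change of AAV8-TBG-Cre over AAV8-TBG-GFP (x axis) for each gene of the 6 lists that passed the filter, red where past the unadjusted threshold and grey where not, with black bars at list medians and a dotted line at the median of all genes tested (-0.01). The cytotoxic effectors centre near that line with a median of 0.08, and the cytokine receptor and recruitment genes lie to its right with a median of 0.73.

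Several of the genes called in these lists are also made by macrophages and other leukocytes, whose markers moved with the vector. At the unadjusted threshold used for these calls 12.0% of all genes tested were called higher and 8.41% lower. All 8 pan-leukocyte genes, Ptprc among them, were called higher, and their summed level was 61.7 to 71.9 CPM in the GFP livers and 96.1 to 167 CPM in the Cre livers. Of 12 macrophage and Kupffer cell genes 8 were called higher and 1 lower, and the sum was 292 to 338 against 439 to 620 CPM. Of 10 B cell genes 3 passed the filter and 2 were called higher, with sums of 7.17 to 7.96 against 8.09 to 21.2 CPM. Jchain alone held 5.32 of a mean of 7.62 CPM with GFP and 10.7 of 15.2 CPM with Cre. In the fit of all genes with a count Ms4a1 (-0.52) and Fcmr (-0.19) were negative and the other B cell genes positive. Of 10 neutrophil genes 6 passed, 3 were called higher and 1 lower, with sums of 15.6 to 16.3 against 22.3 to 23.7 CPM. Of 10 dendritic cell genes 7 passed and 3 were called higher, with the sums given beside Cd8a. In the sums of these 5 lists the groups did not overlap, though for B cells GFP 2 (7.96 CPM) and Cre 3 (8.09 CPM) were close. In the sum of the 10 T and NK cell genes the groups overlapped (3.61 to 5.87 against 4.14 to 7.19 CPM). They also did without Cd4 (2.15 to 3.57 against 2.91 to 6.45 CPM). Of single genes tested, 27.0% had groups that did not overlap. Cre 2 stood at 1.68 times the mean of the other Cre livers for the 10 T and NK cell genes, at 1.64 times for the pan-leukocyte genes and at 2.15 times for the dendritic cell genes. All 9 cholangiocyte genes were called higher (73.6 to 130 against 312 to 588 CPM). Of 10 sinusoidal endothelial genes, all with negative log2 fold changes, 0 were called higher and 1 lower in edgeR, and without GFP 3 the number lower was 7. Of 10 hepatocyte genes 1 was called in each direction. The sums of both these lists overlapped between the groups. No marker list had a gene at 0 in all 6 livers. Without Cre 2 the pan-leukocyte genes kept 6 calls, the macrophage genes 8, the dendritic cell genes 2 and the B cell genes 1. The part of these cell types in the values of the 10 T and NK cell genes was not tested.

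**Figure D4:**
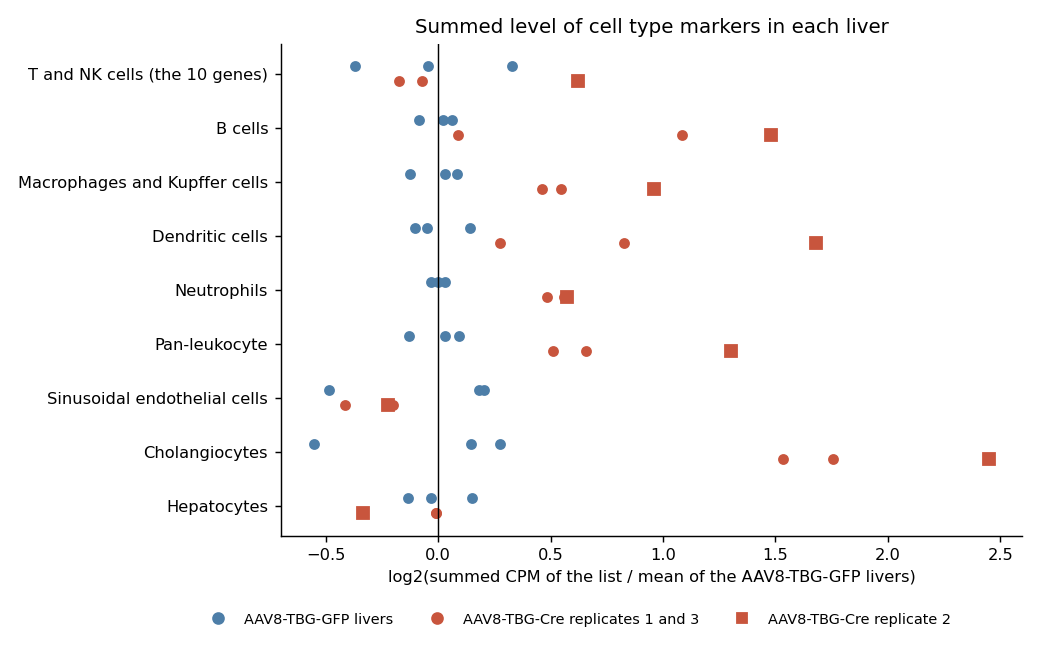
Summed CPM of each marker list in each liver, as log2 ratio to the mean of the GFP livers (x axis), with GFP livers in blue, Cre 1 and Cre 3 as red circles and Cre 2 as red squares. For the T and NK cell genes the red circles fall among the blue ones, and for the pan-leukocyte genes, B cells, macrophages, dendritic cells, neutrophils and cholangiocytes all red symbols lie to the right of all blue ones.

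The genes whose log2 CPM over the 6 livers was most like the mean standardised profile of the 3 tested genes (Cd4, Cd8a and Nkg7) were AI467606 (Pearson r = 0.993), Notch3 (0.989), Ptgis (0.985), Vamp3 (0.983), Agps (0.983), Cd33 (0.978), Zc3hav1l (0.978), Zfp52 (0.976), Tcf21 (0.973) and Tgfb1 (0.973). The profile averages Cd4 with genes that moved the other way, and all 10 matches were highest in Cre 2 and lowest in GFP 3. They were the closest of all genes tested over 6 points that share 2 groups, and they are given as a description without a test.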

How the data were processed

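RNA of whole liver from 6 mice was sequenced by BGI on the DNBseq platform after RNeasy extraction. The protocol gives poly(A) selection or removal of ribosomal RNA without saying which was used. The submitters' processing notes name HISAT2, Bowtie2, RSEM and mm10, the methods of the paper name STAR, HTSeq and DESeq2, and no versions are given in the sources used here. The transcript files deposited by the authors hold an expected count and FPKM of each transcript with any fragment, and their gene table holds FPKM with 2 decimals. Expected counts are estimates that divide shared fragments and need not be whole.

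Expected counts were summed per NCBI gene ID and rounded, giving 20356440 to 21010508 per library. At this depth 3 counts, taken as the limit a count of 0 allows, equal 0.123 to 0.157 CPM on the TMM scale, and intervals and limits cover counting error only. Genes were tested in edgeR 4.0.16 (R 4.3.3), by quasi-likelihood, with TMM, filterByExpr and the vector as factor. Genes were called at an unadjusted p under 0.05 and at least 1.2-fold, the threshold of the study, or at a Benjamini-Hochberg adjusted p under 0.05. Every adjusted p is over all genes of the fit. Genes below the filter were read from a fit of all genes with a count. Alternatives were DESeq2 1.42.0, RLE, other filters, the replicate block, the form of the library name, limma 3.58.1 on log2(FPKM + 1) and log2(FPKM + 0.1), 1.5-fold, and each liver left out. The fits of all genes for the 7 genes below the filter were chosen after seeing the data. The steps were tested on simulated counts. Each library is a mouse of its own, and no libraries of a group agreed within sampling noise.

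The 10 genes and the gene lists were chosen with earlier results of these data known. The text names the 10 genes, Mettl14, Cd8b1, Cd247 and Ncr1. From each pathway list it names the calls with an adjusted p under 0.05, the 3 with the smallest p and all that were lower, and it adds the 10 genes most like the profile. Other genes named in the lists (Lck, Zap70, Lag3, Tigit, Icos, Klrd1, Tbx21, Eomes, Gata3, Foxp3, Ptprc and the dendritic cell genes) were added for their roles after their values were seen. Cd28, Hcst, Cxcr3 and Cxcr6 were added for their calls in the fit with no filter. Positions and windows came from RefSeq on GRCm38.p6.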

Additional observations from a re-analysis of the deposited data

How the results depend on the processing

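The number of the 10 genes called was 2 in the fit reported. It was 1 with DESeq2, with at least 10 counts in every library or with the replicate block. It was 0 with the form of the library name or in the 3 limma fits (Prf1 passed only in limma on log2(FPKM + 0.1) with no filter, added later). With each liver left out in turn it was 0 to 2 (0 without Cre 2, GFP 1 or GFP 2, 1 without Cre 3 or GFP 3). Cd8a was below the filter of at least 10 counts and that of the filtered limma fits, so it was not tested there. Cd4 kept its call with at least 10 counts. Of all genes, the number lower was 376, 365 and 364 in limma (log2(FPKM + 0.1), log2(FPKM + 1), and the latter with no filter), 407 at 1.5-fold and 679 (without GFP 1) to 1687 with a liver left out, against 1129. The number with an adjusted p under 0.05, 125 in the fit reported, was 1157 in DESeq2, 76 with at least 10 counts, 214 with the form of the library name, 27, 22 and 9 in limma, 372 with no filter, 7 with the replicate block and 0 to 895 with a liver left out (895 without Cre 1, 13 without Cre 3, 8 without GFP 1, 1 without GFP 3). It was 0 in edgeR without Cre 2, where 1101 genes were higher and 781 lower unadjusted, and without GFP 2 (1202 and 797). Genes of the pathway lists called lower were 2 in each limma fit and 2 (without Cre 3) to 7 (without Cre 1) with a liver left out, against 4. Genes of the marker lists called lower were 1 in each limma fit, 1 at 1.5-fold and 2 (without Cre 3 or GFP 1) to 9 (without GFP 3, 7 of them sinusoidal endothelial) with a liver left out, against 4. The cause of these changes was not tested.

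Signs of genes near 0 turned. Cd3e was 0.14 with the form of the library name, 0.038 in limma on log2(FPKM + 0.1) and -0.67 to 0.22 with a liver left out. Gzma was 0.079, 0.24 and -1.17 to 2.17 under the same settings (0.21 without Cre 1, 0.11 without Cre 2) and 0.0086 in limma on log2(FPKM + 1). Klrb1c was 0.073 and 0.013 in the 2 limma fits and -0.36 to 0.025 with a liver left out. With a liver left out Cd3g ran from -0.40 to 0.82 and Gzmb from -1.04 to 0.23 (0.017 without Cre 1). Cd3d, Cd8a, Nkg7 and Prf1 were positive and Cd4 negative in every alternative. Deviations from the group mean of libraries with the same replicate number correlated at 0.01, -0.26 and 0.21. Those with different numbers correlated between -0.28 and 0.31. Deviations from a mean of 3 livers are not independent, so these values cannot tell whether the numbers pair the samples. The replicate block is given only to show how calls move (with it Cd247 passed unadjusted, at -1.19). With at most 64 counts of any of the 10 genes in a liver, small changes were not detectable at this depth.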

Other observations

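The transcript tables split Cd8a and Klrb1c in an all-or-none way. Cd8a has transcripts of 3130 and 3099 bases. In 5 livers all Cd8a counts (9 to 19) were placed on the transcript of 3099 bases, and in Cre 2 all 63.85 were placed on that of 3130 bases. Klrb1c has transcripts of 2641 and 2632 bases. Its counts were placed on the longer in GFP 1 and GFP 3 and on the shorter in the other 4 livers. The gene values are sums over both transcripts and do not depend on this placement. Whether the livers differ in the use of these transcripts was not tested.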
